A study of Mus musculus with 4 samples.

Results

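The nuclear genes for oxidative phosphorylation were taken by symbol. They are the protein-coding mouse genes whose symbols start with Nduf, Uqcr, Atp5 or Cox followed by a digit from 4 to 8, together with Sdha, Sdhb, Sdhc, Sdhd and Cyc1. The rule gave 97 genes of the 21887 protein-coding genes on chromosomes that hold a peak. Of these, 41 are complex I genes by symbol, 8 are complex I assembly factors (Ndufaf), 4 belong to complex II, 9 to complex III, 18 to complex IV and 17 to complex V. A further 13 protein-coding genes lie on mitochondrial DNA, where the lists hold 0 peaks, and were not counted.

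Oxidative phosphorylation is carried by 5 protein complexes of the inner mitochondrial membrane. Complexes I to IV pass electrons from NADH and succinate to oxygen and pump protons, and complex V, the ATP synthase, uses the proton gradient to make ATP. Complex II, which is also the succinate dehydrogenase of the citric acid cycle, pumps no protons. Most subunits are encoded in the nucleus and a few in mitochondrial DNA. In macrophages, IL-4 drives the alternative activation state, which is known for its reliance on mitochondrial respiration.

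The study measured chromatin accessibility by ATAC-seq, in which a transposase cuts and tags open DNA, in bone marrow-derived macrophages of C57BL/6 mice. Cells were grown for 5 days with 10% M-CSF, the macrophage growth factor, and each library was made from 50000 cells. The 4 groups were wild type (WT) untreated, WT with 10 ng/mL IL-4 for 6 h, Slc6a8-/y knockout (KO) untreated, and KO with the same IL-4 treatment. Slc6a8, on the X chromosome, encodes the transporter that brings creatine into cells. The labels do not say how many mice gave the marrow or how old they were. Each group had 1 library, so no difference has a replicate check and no p-value is given.

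The WT untreated list held 17339 peaks, KO untreated 13714 and KO IL-4 10443, and the WT IL-4 list was the shortest. No source used here gives the read depth, and list length moves with depth, so a missing peak means only that none was called. The main counts are therefore given for all peaks and again at equal list length, with each list reduced to its highest-scoring peaks, as many as WT IL-4 holds. The score is the authors' value for a peak, and its rank percentile is 100 at the top of its list. Scores and percentiles of different lists are set side by side as values only, and show no change between libraries. An edge peak is a peak within 1 kb of either end of a gene span, and a locus peak lies inside the span or within 10 kb of it. All 14 macrophage markers examined had a locus peak in WT untreated, as did 12257 of 21887 protein-coding genes. There 8 markers had an edge peak, against 3 after IL-4, and 4 and 2 in the corresponding KO libraries. Of all genes, 38.2%, 28.4%, 34.8% and 29.0% had an edge peak in these libraries. By edge peak, the marker share was thus above that of all genes in WT untreated only. At equal list length the marker counts were 2, 3, 2 and 2 of 14, against 29.3%, 28.4%, 29.9% and 28.3% of all genes. Of other cell types, 1 of 5 T cell markers (Cd3d) had an edge peak in every library, and 1 of 6 neutrophil markers (S100a8) and 1 of 4 B cell markers (Ms4a1) in WT untreated only. None of 4 fibroblast and 4 erythroid markers had one in any library. By locus peak, Klf1 (erythroid), Cd79a (B cell) and Lck (T cell) also had at least 1 in every library. Of the macrophage markers, Itgam, Mertk, Cebpb and Mrc1 had no locus peak in either IL-4 library. The part of other cells in the counts was not tested. Slc6a8 itself had 0 locus peaks in each list, so the knockout could not be checked from them.

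Promoter sequences are shown first, for 10 members that stand for the patterns described in the following paragraphs. Each run holds 120 bases before a listed transcription start and 30 from it on, in the direction of transcription, from RefSeq. The build is GRCm38.p6, whose chromosome coordinates are those of the peak files' mm10. Capitals mark matches, on either strand, to the letters of 3 motifs: GCGCNTGCG for NRF1, CCGGAAG for the ETS family that includes the GABP factor, and AAGATGGC for YY1. NRF1 and GABP are known regulators of nuclear genes for mitochondrial proteins. Of the 97 members, 78 matched an entry by gene ID. For 6 members, a peak covered the printed start in all 4 libraries.
Sdha (chr13:74350211-74350360, minus strand): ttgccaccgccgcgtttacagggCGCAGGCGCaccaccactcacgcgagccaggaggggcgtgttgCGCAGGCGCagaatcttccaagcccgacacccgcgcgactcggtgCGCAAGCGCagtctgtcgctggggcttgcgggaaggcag
Sdhd (chr9:50603820-50603969, minus strand): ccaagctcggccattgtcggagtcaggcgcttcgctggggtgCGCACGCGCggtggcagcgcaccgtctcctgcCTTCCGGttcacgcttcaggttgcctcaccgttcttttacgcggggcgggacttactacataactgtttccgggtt
Atp5j (chr16:84834947-84835096, minus strand): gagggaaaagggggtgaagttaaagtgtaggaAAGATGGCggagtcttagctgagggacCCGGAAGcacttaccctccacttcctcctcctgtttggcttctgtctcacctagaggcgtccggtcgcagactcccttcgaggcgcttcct
Ndufaf8 (chr11:120098814-120098963, plus strand): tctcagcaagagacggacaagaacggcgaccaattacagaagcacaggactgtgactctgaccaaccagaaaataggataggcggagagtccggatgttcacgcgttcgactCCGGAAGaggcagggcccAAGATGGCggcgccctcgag
Ndufb4 (chr16:37654339-37654488, minus strand): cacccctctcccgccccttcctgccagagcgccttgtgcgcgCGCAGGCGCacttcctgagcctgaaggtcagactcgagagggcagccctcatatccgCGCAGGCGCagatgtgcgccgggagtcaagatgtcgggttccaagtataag
Cox7c (chr13:86046766-86046915, minus strand): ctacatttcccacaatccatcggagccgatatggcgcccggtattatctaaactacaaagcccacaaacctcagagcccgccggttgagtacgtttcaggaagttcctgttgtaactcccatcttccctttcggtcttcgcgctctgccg

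Another 4 promoters belong to members whose start was covered in some libraries only. The peaks covered the starts of Ndufs5 and Atp5md in every library but WT IL-4, that of Cox8a in every library but KO IL-4, and that of Atp5k in WT untreated alone.
Ndufs5 (chr4:123718157-123718306, minus strand): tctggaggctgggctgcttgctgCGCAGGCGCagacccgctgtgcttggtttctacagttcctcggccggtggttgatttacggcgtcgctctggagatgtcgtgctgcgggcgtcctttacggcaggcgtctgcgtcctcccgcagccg
Atp5md (chr19:47090618-47090767, minus strand): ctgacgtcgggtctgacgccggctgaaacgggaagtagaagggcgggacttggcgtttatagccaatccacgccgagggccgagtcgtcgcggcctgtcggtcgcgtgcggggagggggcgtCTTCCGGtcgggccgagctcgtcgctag
Cox8a (chr19:7217587-7217736, minus strand): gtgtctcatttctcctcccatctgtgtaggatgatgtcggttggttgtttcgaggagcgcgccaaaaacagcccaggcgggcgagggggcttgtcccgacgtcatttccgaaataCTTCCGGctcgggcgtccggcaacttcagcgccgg
Atp5k (chr5:108434370-108434519, minus strand): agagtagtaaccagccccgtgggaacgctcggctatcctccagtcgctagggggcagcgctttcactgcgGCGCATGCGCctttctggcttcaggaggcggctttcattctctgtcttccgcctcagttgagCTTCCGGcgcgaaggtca

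Members with and without the variable pattern both carried these letters. Sdha, the flavoprotein subunit of complex II, held 3 NRF1 matches in the printed run, and Ndufs5, which lacked a peak in WT IL-4, held 1. The printed run of Cox7c held none of the 3 motifs, and of complex IV genes it had the highest minimum of rank percentile over the 4 libraries. A match is a description of letters and no evidence of binding.

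Over the longer promoter window, from 250 bases before to 50 after a listed start, NRF1 letters were found in 26 of 78 members (33.3%). The share was 9.68% of 17492 protein-coding genes and 17.7% of the 6883 genes that had an edge peak in WT untreated. YY1 letters were present in 14.1% of members, 3.57% of all genes and 6.00% of genes with an edge peak. ETS letters were in 24.4% of members, against 12.9% and 23.1%, so members were close to other genes with an open edge. The GC-box letters of SP and KLF factors (GGGCGGGG) went the other way, with 19.2% of members against 26.2% of all genes and 38.6% of genes with an edge peak. The remaining letters searched were TGACGTCA for CREB, TCAAGGTCA for the estrogen-related receptor ERRa, CCAAT for NF-Y and TATAAA for the TATA box, all on both strands. They were found in 5.13%, 2.56%, 43.6% and 10.3% of members, and in 2.54%, 0.377%, 42.3% and 14.8% of all genes. Genes with an edge peak in WT untreated had 4.17%, 0.305%, 46.9% and 7.73%. The TATA share of members was thus below that of all genes and above that of genes with an edge peak. At least 1 of the NRF1, ETS and YY1 motifs was in 46 members (59.0%). It was in 22.9% of all genes and 40.0% of genes with an edge peak in WT untreated. By pattern, that share was 60.0% of 40 members with an edge peak in every library and 74.1% of 27 with one in 1 to 3 libraries. It was 18.2% of 11 with none. The pattern was taken at span ends, and the window at listed starts. Of these 11, Atp5d, Cox5a and Cox7a2 had a peak near a listed start inside the span. Atp5d was 1 of the 2 with a match, so the 11 do not stand for promoters without a peak. Members had a median GC content of 58.5% in this window, against 56.3% for all genes and 61.3% for genes with an edge peak in WT untreated.

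**Figure D1:**
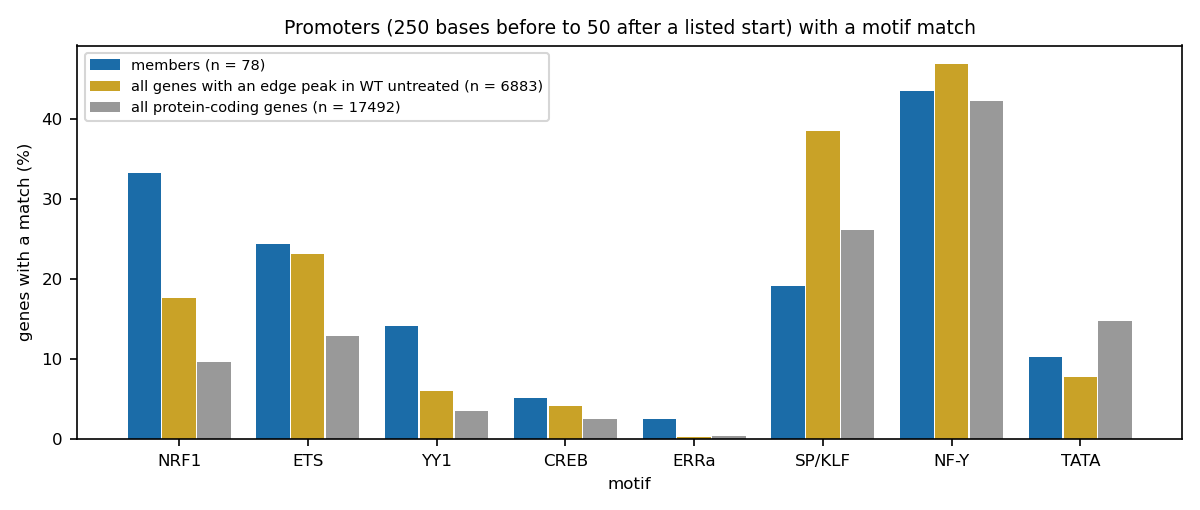
Share of promoters (y axis, percent of genes) that hold the letters of each motif (x axis) on either strand, for 78 members, 6883 genes with an edge peak in WT untreated and 17492 protein-coding genes. NRF1 letters stand at 33.3% of members against 9.68% of all genes, while SP/KLF letters stand lower in members.

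An edge peak was present for most members in every library. It was called for 77 of 97 members in WT untreated (79.4%, exact Clopper-Pearson 95% interval 70.0% to 86.9%), where 38.2% of all protein-coding genes had one. In WT IL-4, 55 members (56.7%) had one, against 28.4% of all genes. For KO untreated the count was 63 (64.9%), against 34.8%, and for KO IL-4 it was 56 (57.7%), against 29.0%. The interval covers counting error over genes only. At equal list length the counts were 56, 55, 59 and 56, against 29.3%, 28.4%, 29.9% and 28.3% of all genes. The 4 counts then lay between 55 and 59. The members behind them were not the same, and 39 had an edge peak in all 4 libraries.

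Mitochondrial ribosomal protein genes, which serve translation of the subunits encoded in mitochondrial DNA, gave similar shares. Edge peaks were called for 63, 43, 51 and 42 of these 78 genes in WT untreated, WT IL-4, KO untreated and KO IL-4. The 87 cytosolic ribosomal protein genes had 67, 47, 65 and 48. Lists of equal length gave 42, 43, 41 and 42 for the former and 51, 47, 56 and 46 for the latter. A share above that of all genes was thus also seen outside oxidative phosphorylation.

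**Figure D2:**
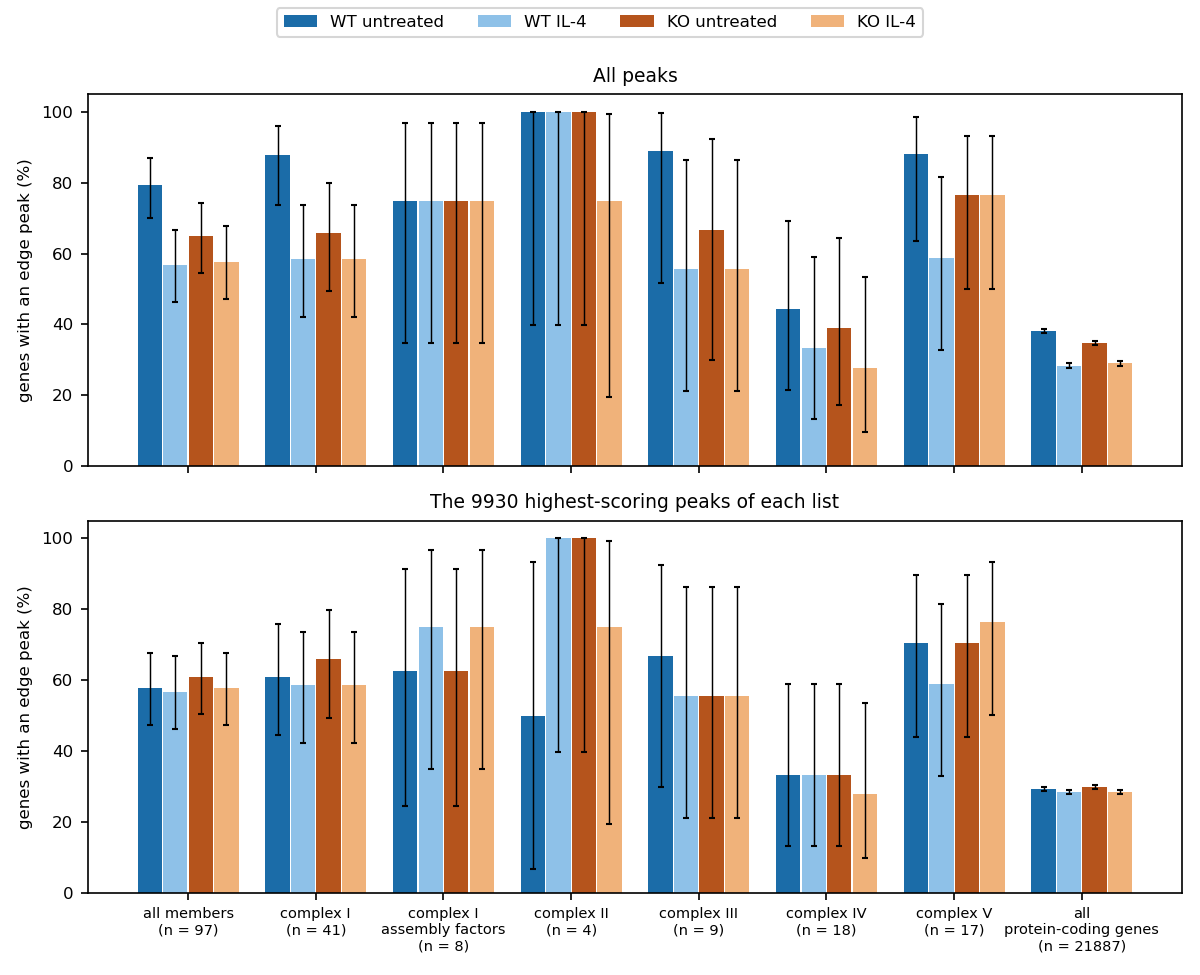
Share of genes with an edge peak (y axis, percent) by complex and in all 21887 protein-coding genes (x axis), with 1 bar for each library and exact 95% intervals for counting error over genes. The upper panel uses all peaks and the lower panel equal list lengths, where the 4 libraries stand at 56.7% to 60.8% of all members.

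The members had 134 locus peaks in WT untreated and 89 after IL-4, and 108 and 84 in the KO libraries. The WT IL-4 count was 66.4% of the WT untreated count (log2 ratio -0.59), and over all gene loci it was 59.3% (-0.75). In KO, the IL-4 count was 77.8% of the untreated count, against 76.6% over all loci. Between genotypes, KO untreated held 80.6% of the WT untreated count, against 81.2% over all loci, and KO IL-4 held 94.4% of the WT IL-4 count, against 105%. At equal list length, the members' counts were 86, 89, 89 and 83, with log2 ratios from -0.10 to 0.05. With all peaks, the members' counts were thus lower where the list was shorter, except that KO IL-4, the longer of the IL-4 lists, held fewer than WT IL-4.

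The complexes differed in how completely their genes were covered. All 4 complex II genes had an edge peak in WT untreated, WT IL-4 and KO untreated, and 3 in KO IL-4. Complex V had 15, 10, 13 and 13 of 17 genes with one in the order WT untreated, WT IL-4, KO untreated, KO IL-4. In the same order, complex I had 36, 24, 27 and 24 of 41, and complex III had 8, 5, 6 and 5 of 9. The assembly factors had 6 of 8 in each library. Complex IV stood lowest, with 8, 6, 7 and 5 of 18. These are 44.4%, 33.3%, 38.9% and 27.8%, against 38.2%, 28.4%, 34.8% and 29.0% of all genes. Complex IV was thus near the share of all genes. Its genes without an edge peak included tissue isoforms, such as Cox6a2 and Cox6b2, and Cox5a and Cox7a2, whose listed starts lie inside the span. In lists of equal length, complex II had 2, 4, 4 and 3, complex V 12, 10, 12 and 13, and complex I 25, 24, 27 and 24. Complex III then had 6, 5, 5 and 5, and the assembly factors 5, 6, 5 and 6. Complex IV had 6, 6, 6 and 5, still the lowest share. With so few genes the intervals are wide. In WT untreated with all peaks, they were 39.8% to 100% for complex II and 21.5% to 69.2% for complex IV.

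An edge peak in all 4 libraries was called for 44 members (45.4%, against 22.9% of all genes) and in none for 16 (16.5%, against 58.3%). With equal lists these were 39 (40.2%, against 21.0%) and 27 (27.8%, against 63.1%). The members with none then included 11 of complex I in place of 5, and 3 of complex III in place of 0. In complex IV the count was 10 in place of 9, the largest share of any complex under both rules.

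**Figure D3:**
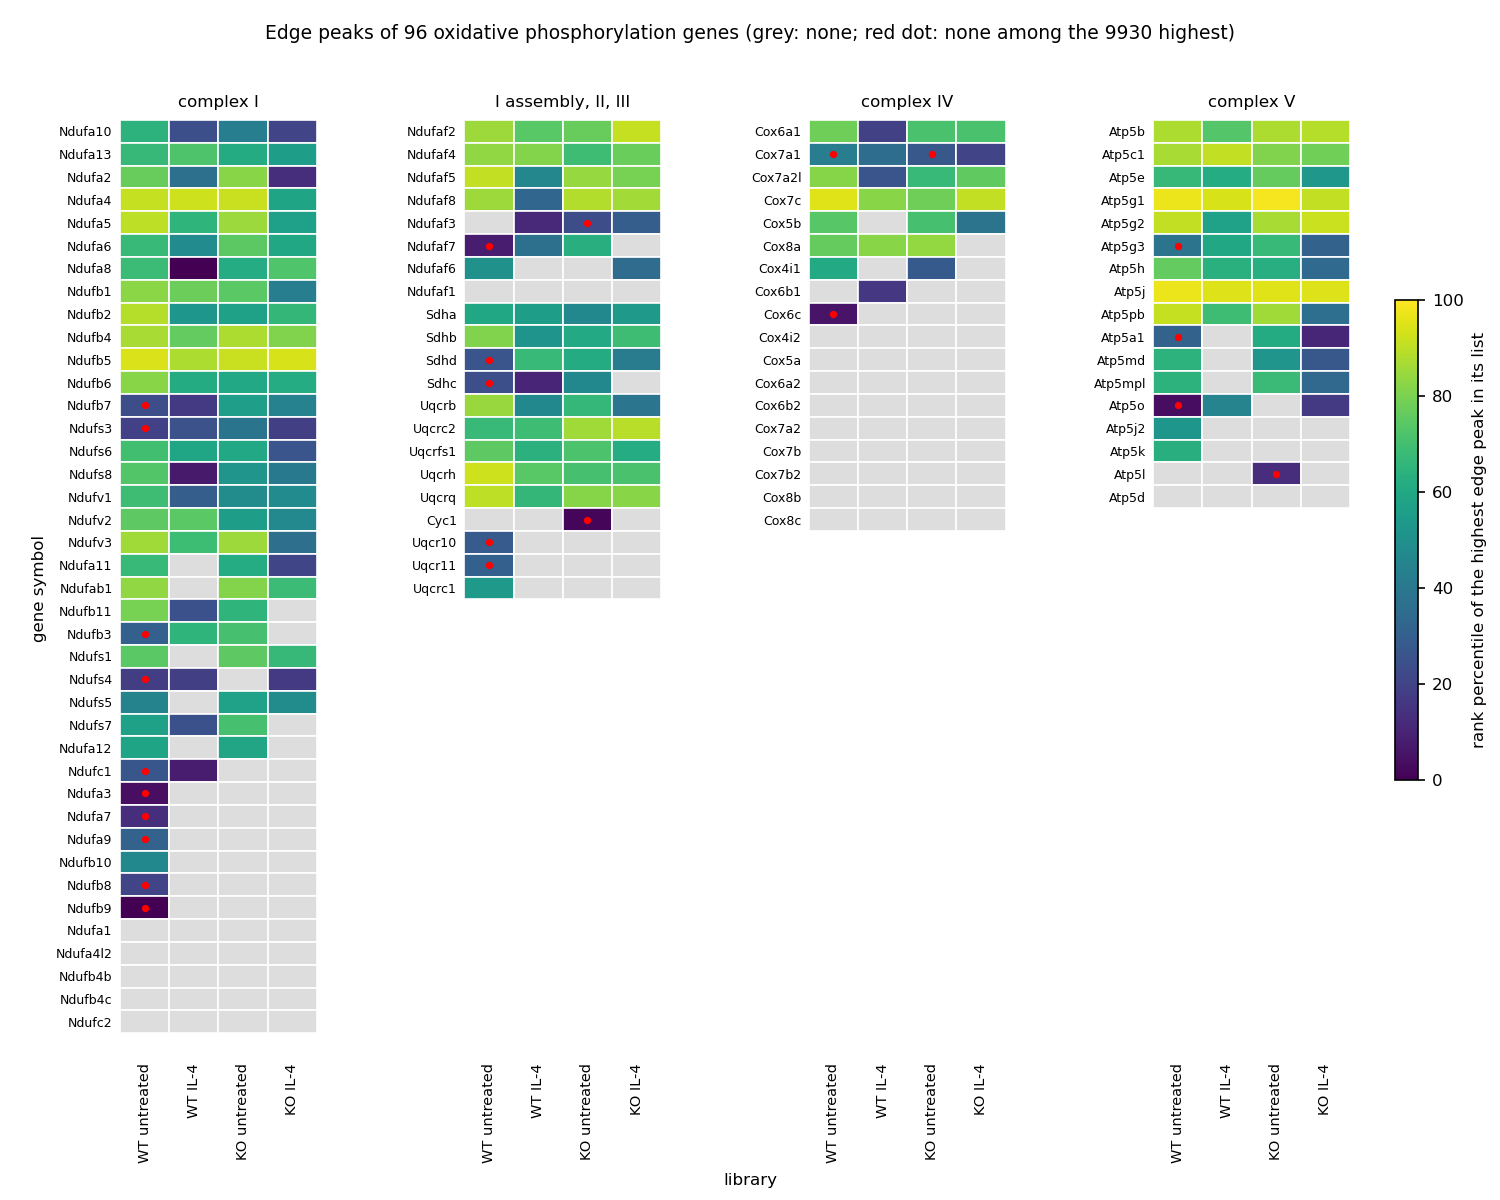
Rank percentile (colour, 100 is the top of that list) of the highest edge peak of each of 96 members (rows, by complex) in the 4 libraries (columns). Grey is no edge peak and a red dot marks a peak that is dropped at equal list length. The grey block in complex IV holds 9 genes, and 12 of the members drawn are coloured in WT untreated alone.

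Complex I, the NADH dehydrogenase, takes electrons from NADH through its flavoprotein and iron-sulfur subunits. Ndufv1, which binds the flavin and NADH, scored 145 in the WT untreated list and 66.4 after IL-4, and 91.7 and 83.3 in the KO lists untreated and after IL-4. Its partner Ndufv2 scored 170, 126, 102 and 82.5 in that order of libraries, which holds for every set of 4 values that follows. Both had an edge peak in every library.

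Among the iron-sulfur subunits, Ndufs1 had a peak in WT untreated (166), KO untreated (153) and KO IL-4 (112) and none in WT IL-4. Ndufs8 scored 160, 53.1, 97.8 and 76.4. Ndufs3, a core subunit, had low-ranking peaks throughout, at 63.7, 63.4, 79.1 and 59.4.

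Ndufs7, the core subunit next to the ubiquinone site, had an edge peak of 115 in WT untreated, 63.1 in WT IL-4 and 139 in KO untreated, and none in KO IL-4. It was 1 of only 2 members with at least 4 locus peaks in a library, the other being Sdhb. Its upstream peak lies 8542 to 8675 bp from Gamt, the creatine synthesis enzyme, and so also counts toward the Gamt locus. The Ndufs7 locus also held a peak that overlaps the end of the Gamt span, at chr10:80260885-80262033 in KO IL-4, and scored 175, 104, 177 and 152. Its upstream peak was thus the one that went uncalled in KO IL-4.

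The membrane-arm genes Ndufb5 and Ndufb4 had the highest-ranking peaks of complex I in their weakest library. Ndufb5 scored 343, 174, 257 and 233, with rank percentiles from 87.5 to 94.2. Ndufb4 scored 244, 130, 220 and 149, at percentiles from 75.9 to 87.7. Both ranked high in every list.

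Ndufa4 was counted with complex I by symbol, though it is now known as a complex IV subunit. It scored 288, 211, 257 and 97.2, and its percentile was 91.2 to 92.5 in the first 3 libraries and 58.3 in KO IL-4. Its paralogue Ndufa4l2, known as a hypoxia-induced gene, had no edge peak in any library. Ndufa1, Ndufc2 and the copies Ndufb4b and Ndufb4c had none either.

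The assembly factors build complex I and are not part of the finished enzyme. Ndufaf2 scored 228, 125, 159 and 207, and Ndufaf4 scored 214, 147, 134 and 137. Ndufaf8, the partner protein of Ndufaf5, scored 228, 69.1, 226 and 172. Ndufaf3 was the only member with a peak in every library but WT untreated, at 55.6, 64.4 and 67.2. Ndufaf1 had no edge peak in any.

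Complex II passes electrons from succinate to ubiquinone. Sdha, its flavoprotein, scored 121, 91.9, 89.5 and 90.6, and its percentile lay between 46.7 and 59.6, the narrowest spread of the 3 complex II genes with a peak everywhere. Sdhb, the iron-sulfur subunit, scored 197, 87.2, 113 and 117, and its locus held 4 peaks in each untreated library. The membrane anchor Sdhd scored 69.5, 111, 115 and 77.1, and its WT untreated peak was dropped at equal list length. The other anchor, Sdhc, scored 67.8, 54.9 and 89.7 and had no peak in KO IL-4.

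Complex III passes electrons from ubiquinol to cytochrome c. Its core subunit Uqcrc2 scored 141, 114, 208 and 190, at percentiles of 67.4, 68.8, 85.9 and 89.2. The other core subunit, Uqcrc1, was called in WT untreated alone, at 108. Uqcrfs1, the Rieske iron-sulfur protein, scored 169, 104, 142 and 103. Uqcrh, the hinge protein, scored 309, 125, 138 and 122. Cyc1, the cytochrome c1 subunit, had a single low peak in KO untreated, at 50.6, near the bottom of that list. The small subunits Uqcr10 and Uqcr11 had a peak in WT untreated only, at 72.0 and 73.8.

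Complex IV, cytochrome c oxidase, has several subunits with tissue-specific isoforms, and some of these isoforms split by edge peak in at least 1 library. Cox4i1, the common isoform, had a peak in both untreated libraries, at 122 in WT and 68.3 in KO, and in neither IL-4 library. Cox4i2 had none. Cox6a1 scored 182, 59.9, 141 and 122, while the heart and muscle isoform Cox6a2 had none. Cox8a scored 175, 151 and 194 in the first 3 libraries and had no peak in KO IL-4, while its isoforms Cox8b and Cox8c had none. Cox6b1 had 1 peak, in WT IL-4 at 58.0, and the testis isoform Cox6b2 had none.

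The Cox7a pair did not follow that division. Cox7a1 is known from heart and muscle, and it had an edge peak in all 4 libraries, at 88.3, 71.1, 67.3 and 60.5, with percentiles from 20.2 to 41.8. Its widely expressed paralogue Cox7a2 had no edge peak, but it had a peak over a listed start 11569 bp inside the 5' end of its span. That peak, at chr9:79759473-79760168 in KO IL-4, scored 185, 127, 270 and 236, at percentiles from 74.7 to 94.2. The span in the gene table extends past that start.

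Cox5a and Atp5d behaved like Cox7a2 in part, with listed starts 3904 and 3577 bp inside the span. The Cox5a start was covered in WT untreated (63.5) and KO untreated (70.0) and not in the IL-4 libraries. Atp5d, the delta subunit of ATP synthase, had a peak within 1 kb of a listed start in WT untreated (65.6), WT IL-4 (62.5) and KO untreated (64.7). The 65.6 peak covered no listed start, while the WT IL-4 and KO untreated peaks did. A second WT untreated peak, at chr10:80142056-80142448 with a score of 56.2, overlapped those. Counted at listed starts, a measure added after the data were seen, 67, 52, 56 and 49 of 78 members had a peak within 1 kb. Of 17492 genes, 7121, 5240, 6512 and 5432 had one, of which the first is 40.7% and the last 31.1%. With equal lists the members' counts were 49, 52, 51 and 49, and 5484, 5240, 5601 and 5301 of all genes. Cox5b, another complex IV subunit, scored 163, 139 and 73.9 and lacked a peak in WT IL-4.

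Cox7c scored 367, 150, 165 and 203, and its lowest percentile, 78.1 in KO untreated, was the highest minimum of complex IV. Cox8a ranked above it in WT IL-4 (82.4 against 82.2) and in KO untreated (83.8). Cox7a2l, which assembles respiratory supercomplexes, scored 203, 64.0, 130 and 132. Cox7b, on the X chromosome, and its testis paralogue Cox7b2 had no edge peak. Of the other X-linked members, Ndufa1 had none and Ndufb11 scored 188, 63.2 and 124, with none in KO IL-4.

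Complex V makes ATP. Atp5j, the coupling factor 6 subunit, scored 420, 235, 305 and 242, and its percentile lay between 94.7 and 97.0, the highest minimum of all members. Its edge peak is shared with Gabpa, the gene of the DNA-binding GABP subunit, whose span overlaps that of Atp5j at this end. Atp5g1, a gene for the rotating c ring, scored 417, 223, 454 and 204. The c-ring genes Atp5g2 and Atp5g3 scored 283, 95.0, 216 and 212, and 83.2, 97.8, 130 and 68.3.

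The catalytic core genes differed from each other. Atp5b, the beta subunit, scored 249, 124, 220 and 187. Atp5c1, the gamma subunit, scored 243, 196, 178 and 140. Atp5a1, the alpha subunit, scored 75.0, 115 and 55.1 in WT untreated, KO untreated and KO IL-4 and had no peak in WT IL-4. Atp5o, the stalk protein OSCP, scored 52.7, 80.1 and 58.3 and had none in KO untreated. Atp5l was called in KO untreated alone, at 57.3.

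Edge peaks of members lay over their transcription starts. Of the 77 in WT untreated, 64 belong to members with a listed start and strand. Among these, 63 were at the 5' end and 61 covered the start, while over all genes 82.7% of edge peaks did. The other libraries gave 49 of 50, 52 of 53 and 47 of 48 at the 5' end. The exception in each was Ndufb6, whose highest edge peak lay at its 3' end, by Smim27 and Topors. Median distances of the peak midpoint from the start were -46, -20, -66 and -53 bp, where a negative value is upstream.

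**Figure D4:**
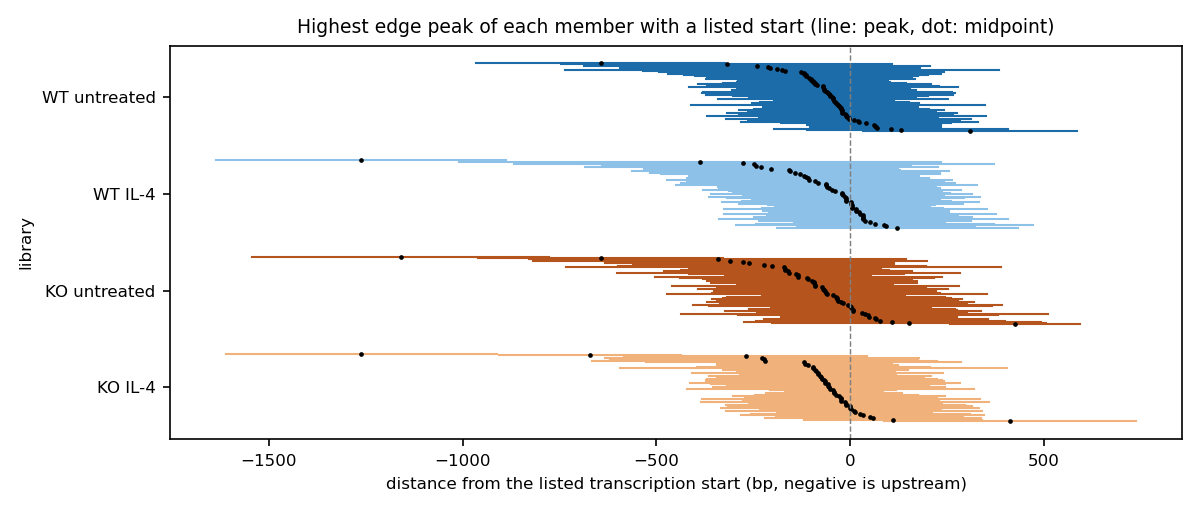
Highest edge peak of each member with a listed start, as distance from that start in bp (x axis, negative is upstream), for the 4 libraries (y axis). Lines are peaks and dots midpoints; the medians lie between -66 and -20 bp, and Ndufb6, whose peak is at its 3' end, lies beyond the axis.

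Many members share their open edge with a neighbour. In WT untreated, 38 of 77 members with an edge peak (49.4%) had another protein-coding gene within 1 kb of that peak, against 30.4% of all genes with an edge peak. In the other libraries the members' share was 54.5%, 55.6% and 53.6%, against 33.0%, 31.2% and 32.2%. Across libraries, 39 members were affected. Some neighbours are mitochondrial genes too: Ndufb5 shares its peak with Mrpl47 and Ndufs6 with Mrpl36, both mitochondrial ribosomal proteins, and Sdhd with Timm8b, an import chaperone. A shared peak cannot be assigned to either gene. Of the members named below as missing or appearing, Atp5a1, Atp5md, Cox4i1, Ndufa11, Ndufaf3, Ndufaf7, Ndufb3, Ndufb11, Ndufs1 and Sdhc shared their edge peak. The Ndufa11 peak, near Vmac, covered no listed start in the libraries where it was called.

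Under IL-4 in WT, 24 of 77 members with an edge peak in the untreated library had none in the treated one (31.2%, against 28.8% of all genes). Of 20 members without one, 2 had one after IL-4, against 1.89% of all genes. With lists of equal length, 14 of 56 were missing after IL-4 (16.8% of all genes) and 13 of 41 appeared (5.61% of all genes). The members missing under both rules numbered 14. In order of score they were Ndufab1 (213, at chr7:122101595-122102189), the mitochondrial acyl carrier protein, then Ndufs1, Cox5b, Ndufa11, Atp5mpl, Atp5md, Atp5k, Cox4i1, Ndufa12, Uqcrc1, Atp5j2, Ndufaf6, Ndufb10 and Ndufs5 (92.4). None of the 14 had any overlapping peak in the WT IL-4 list. Cox6b1 and Ndufaf3 appeared under both rules, at scores of 58.0 and 55.6.

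Peaks that were missing after IL-4 had ranked lower beforehand. The median percentile in WT untreated was 48.4 for the 24 members without a peak in WT IL-4 and 76.9 for the 53 that had one. Over all genes, the medians were 38.9 and 80.5. Members and all genes thus had the same order.

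In KO, 10 of 63 members with an edge peak untreated had none after IL-4 (15.9%, against 22.7% of all genes), and 3 of 34 appeared (3.22% of all genes). The counts at equal list length were 8 of 59 (17.5% of all genes) and 5 of 38 (5.28% of all genes). Missing under both rules were Cox8a (194), Ndufs7 (139), Ndufb3 (138), Ndufb11 (124), Ndufaf7 (119), Ndufa12 (110), Sdhc (89.7) and Cox4i1 (68.3), with the KO untreated score in brackets. Cox4i1 and Ndufa12 were on the list in both genotypes. Ndufaf6 (71.4), Ndufs4 (58.6) and Atp5o (58.3) appeared with IL-4 in KO.

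Without treatment, 17 of 77 members with an edge peak in WT had none in KO (22.1%, against 15.1% of all genes), and 3 of 20 appeared (3.88% of all genes). With equal lists, 5 of 56 were missing (12.1% of all genes) and 8 of 41 appeared (5.78% of all genes). The order of the 2 directions thus turned with list length. Missing under both rules were Atp5k (129), Uqcrc1 (108), Atp5j2 (106), Ndufaf6 (101) and Ndufb10 (95.3). Atp5k and Atp5j2 encode the e and f subunits of the membrane part of ATP synthase.

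After IL-4, the KO and WT lists were nearly equal in length. Of 55 members with an edge peak in WT IL-4, 8 had none in KO IL-4 (14.5%, against 15.6% of all genes), and 9 of 42 appeared (7.10% of all genes). Lists of equal length gave 8 and 9 again, against 16.6% and 6.56%. In KO IL-4 and not WT IL-4 were Ndufab1 (115), Ndufs1 (112), Ndufs5 (83.9), Cox5b (73.9), Ndufaf6 (71.4), Atp5mpl (70.1), Atp5md (65.4), Ndufa11 (60.9) and Atp5a1 (55.1). In WT IL-4 and not KO IL-4 were Cox8a (151), Ndufb3 (107), Ndufaf7 (71.9), Ndufb11 (63.2), Ndufs7 (63.1), Cox6b1 (58.0), Sdhc (54.9) and Ndufc1 (53.4). The Cox8a peak, at chr19:7217322-7217933, ranked highest of these 8, at percentile 82.4 in WT IL-4, and overlapped no peak in KO IL-4.

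**Figure D5:**
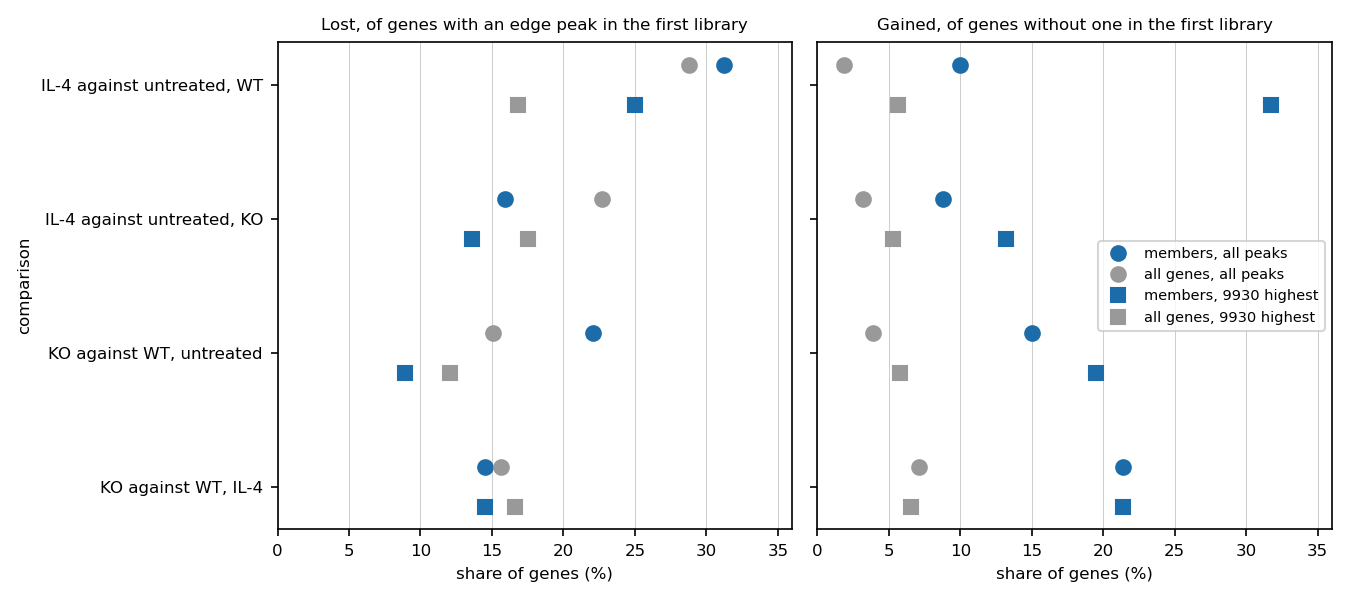
Share of genes (x axis, percent) whose edge peak was missing from the second library (left) or appeared in it (right) in each comparison (y axis), for members and all protein-coding genes, with all peaks (circles) or equal list lengths (squares). In WT, IL-4 left 31.2% of members without their peak against 28.8% of all genes, and the share gained was higher for members in each comparison.

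The gained shares need their denominator. Members without an edge peak numbered 20 to 42 by library, while 13529 to 15682 of all genes had none, and many of those had no peak in any list (58.3% of all genes, against 16.5% of members). In WT untreated, 4 of the 20 members without one had an edge peak in another library, while 12757 of the 13529 genes without one had none anywhere.

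Some members lacked a peak in a single library. Of 52 members with an edge peak in the other 3 libraries, 8 lacked one in WT IL-4 alone (15.4%, against 12.8% of all genes). They were Atp5a1, Atp5md, Atp5mpl, Cox5b, Ndufa11, Ndufab1, Ndufs1 and Ndufs5. At equal list length, a count added after the data were seen, this was 7 of 46 (15.2%, against 8.23%). Of 50 members, 6 lacked one in KO IL-4 alone (against 10.7% of all genes). They were Cox8a, Ndufaf7, Ndufb11, Ndufb3, Ndufs7 and Sdhc. In lists of equal length, Cox8a, Ndufb11 and Ndufs7 remained, 3 of 42 (7.14%, against 7.75%). A peak in WT untreated alone was found for 13 of the 77 members with one there, against 763 of 8358 genes. Over all members and all genes, with or without a peak, the shares were 13.4% and 3.49%. With equal lists, 4 of these kept the pattern, namely Atp5j2, Atp5k, Ndufb10 and Uqcrc1. That is 4 of 56 members with a peak there, against 262 of 6419 genes (4.12% of all members, against 1.20% of all genes).

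The genes that work with the complexes were read from lists of the same pathway. Cytochrome c (Cycs), the carrier between complexes III and IV, scored 240, 238, 288 and 168, and its testis form Cyct had no edge peak. Of 35 further assembly factors, 33, 25, 28 and 24 had an edge peak. With IL-4, 8 of the 33 went uncalled in WT and 7 of the 28 in KO, against 28.8% and 22.7% of all genes. With equal lists, 27, 25, 24 and 23 had one, and 3 of 27 and 5 of 24 went uncalled, against 16.8% and 17.5%. Among 14 regulators of these genes and of mitochondrial DNA, 10, 9, 9 and 9 had one, and 7, 9, 9 and 9 with equal lists. Tfb1m, a mitochondrial rRNA methyltransferase, scored 574, 407, 515 and 368. Ppargc1a and Ppargc1b, the PGC-1 coactivators, had none in any library. Of 18 citric acid cycle genes, 16, 13, 15 and 14 had an edge peak, and 16, 13, 13 and 14 with equal lists.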

How the data were processed

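ATAC-seq was done on 4 libraries, 1 per group, and their deposited peak lists were used. Scores were used as deposited by the authors, and no header states their unit. The build mm10 and the tools HOMER, MACS 1.4.2 and Bowtie2 2.2.5 were named, per the submitters' processing notes, with no roles or parameters. Read depth and filters were not found in the labels.

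Gene spans came from the RefSeq table of GRCm38.p6, which lists no strand, and listed starts and strand from the promoter table. An edge peak overlapped the 1 kb around either end of a span, by at least 1 bp, and locus peaks overlapped the span with 10 kb added per side. A member counted as missing or appearing when it had an edge peak in 1 library of a comparison and not in the other. Ranks were taken within a list. Counts were computed in Python 3.11.15 with NumPy 2.4.6 and SciPy 1.17.1, with no test between libraries. Intervals are Clopper-Pearson, for counting error only. The counting was checked on the WT untreated list over 21887 genes, with edge peaks removed from or added to it. All 200 planted losses were recovered, as were all 200 gains. The planted changes followed the edge rule itself, so their recovery checks the code only. A direct search gave the same peaks for 300 of 300 genes.

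The members and gene lists were chosen with earlier results of these data known. Members were named by a rule: complex II, Cyc1, the isoform pairs, Cox5a and Cox5b, and members without edge peaks. The rule also took those changed under both list lengths, the 2 highest-ranking per complex, and those with 4 or more locus peaks. Others that are named were chosen after their values were seen. Alternatives were equal list lengths, a score minimum, other distances, 5' ends, subunits only and autosomal members. No peak sequence or exon was used. The values of 1 member are not reported here.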

Additional observations from a re-analysis of the deposited data

Results flagged for a closer look

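Ndufaf6, a complex I assembly factor, went in opposite directions with IL-4 in the 2 genotypes. Its edge peak was called in WT untreated, at chr4:11075925-11076469, with a score of 101 and not in WT IL-4, while in KO it was called after IL-4 at a score of 71.4 and not in KO untreated. The difference between genotypes was not tested, since each group had 1 library. Of all protein-coding genes, 256 had opposite calls of either kind, and Ndufaf6 was the only member among them. At equal list length the members were Ndufaf6, Ndufaf7, Ndufb3 and Sdhc, of 346 genes.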

How the results depend on the processing

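Of 144 recomputed counts, 116 stayed within 1.5 times the reported count and 28 did not. At equal list length, IL-4 in WT gave 14 members missing and 13 appearing, IL-4 in KO gave 5 appearing, and untreated KO against WT gave 5 missing and 8 appearing. Locus peaks in WT untreated came to 86. Members with no edge peak in any library went from 16 to 27, complex II genes with one in WT untreated from 4 to 2, and members with one in WT untreated alone from 13 to 4. Members missing from a single library then numbered 4 for WT untreated, 0 for KO untreated and 3 for KO IL-4, counts that were added after the data were seen. With a score of 100 or more, edge peaks remained for 26 members in WT IL-4 and 24 in KO IL-4. IL-4 in KO then gave 27 missing and 0 appearing, and untreated KO against WT gave 10 missing and 7 appearing. Locus peaks were 84, 36, 71 and 36 in WT untreated, WT IL-4, KO untreated and KO IL-4. Loci of 50 kb gave 275, 171, 224 and 171, and loci of 1 kb gave 88 in WT untreated. With subunits only, or with edges of 2.5 kb, 1 member appeared with IL-4 in WT. After IL-4, 5 members appeared in KO against WT when 5' ends only were used, and 5 at listed starts, the latter added after the data were seen. Edges of 500 bp, peak midpoints, the autosomal members and a call by overlap with the other list moved no count past 1.5 times. Some settings leave fewer peaks or members, while loci of 50 kb and edges of 2.5 kb reach further. The cause of these moves was not tested. With 1 library per group, no replicate could be left out, and a peak near the lowest score of its list may be called or not with depth.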

Other observations

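Polg, the catalytic subunit of the mitochondrial DNA polymerase, had an edge peak in WT IL-4 alone, at a score of 212 and a rank percentile of 92.6. Pprc1, a PGC-1 family coactivator, scored 53.7 in WT untreated and 55.2 in WT IL-4, and the KO values were 124 untreated and 80.2 after IL-4. Polrmt, the mitochondrial RNA polymerase, scored 79.1, 172 and 74.9 in WT untreated, KO untreated and KO IL-4 and had no edge peak in WT IL-4. Dlat, a pyruvate dehydrogenase subunit, had an edge peak in both untreated libraries, at 111 in WT and 93.0 in KO, and in neither IL-4 library. The names were chosen after the values were seen, and no replicate stands behind any of them.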
